A study of Homo sapiens with 16 samples.

Results

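Rottlerin, a plant polyphenol, was given at 1.23 uM to planar islet cultures made from the human embryonic stem cell line HUES08 (genotype WT), starting at stage 5 and ending after 7 days of stage 6. Its 2 libraries were compared with the 2 libraries of cultures that received DMSO, the solvent, over the same period. These 4 of the 16 libraries were chosen by their treatment label alone. The 12 libraries of the other 6 compounds served as a background: Colchicine at 10 nM, Epirizole at 2.5 uM, Ly-294002 at 120 nM, Moxifloxacin at 1.1 uM, Vardenafil at 125 nM and Rimonabant at 125 nM, with 2 libraries each. All 16 libraries shared the cell line, the treatment window and the label of batch 1. It is not stated if paired libraries of a treatment are independent cultures. Each p-value therefore reflects variation among libraries that could be purely technical.

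Rottlerin is best known as a reported inhibitor of protein kinase C delta, and it has also been reported to uncouple mitochondria. CEBPA is a transcription factor of liver, fat and myeloid cells. Enterocytes are the absorptive cells of the small intestine, and their brush border carries digestive enzymes such as lactase, while their cytosol holds binding proteins for absorbed fatty acids and retinol. Cholesterol is made by a chain of enzymes whose genes are switched on together by the transcription factor SREBF2 when membrane sterol is low. Pancreas, liver and intestine all arise from the endoderm.

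The comparison with DMSO shows which genes differed in rottlerin cultures. The comparison with the other 6 compounds shows which genes differed in rottlerin from the mean of those treated cultures. A call in it requires no difference from DMSO, and it does not show that the other treated cultures matched DMSO. The last comparison, of the other 6 compounds with DMSO, shows how far their mean stood from DMSO. Rottlerin libraries enter both of the first comparisons and DMSO libraries enter the first and the third, so the values are given side by side and no agreement between them is counted as evidence. Levels are CPM, the read counts divided by library size after scaling by TMM factors. Differences are log2 fold changes with their standard errors (SE) from 1 edgeR fit over all 16 libraries. A gene is called where its Benjamini-Hochberg adjusted p, over all 24515 genes tested, is under 0.05.

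Against DMSO, 2 genes rose (0.00816% of the genes tested) and none fell (0%). Against the other 6 compounds, 15 genes rose (0.0612%) and none fell (0%), among them the genes of lactase, intestinal retinol and fatty acid binding, a brush border mucin and CEBPA. In the comparison of the other 6 compounds with DMSO no gene was called in either direction (0% higher, 0% lower). By edgeR's unadjusted p under 0.05, 2034 genes were higher (8.3%) and 1589 lower (6.48%) against DMSO, and 811 were higher (3.31%) and 412 lower (1.68%) against the other 6 compounds. In the third comparison 3797 genes had an unadjusted p under 0.05. DESeq2 called 678 genes against DMSO (516 higher, 162 lower) and 52 against the other 6 compounds (47 higher, 5 lower). In the third comparison it called 458 (357 higher, 101 lower). Both rottlerin libraries lay above all 14 others in 228 genes (0.93%) and below all 14 in 162 (0.661%).

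Promoter sequence is shown for 3 of the 15 genes, to set a liver and intestine gene (FABP1) and an enterocyte gene (RBP2) beside the transcription factor CEBPA. Each run ends where RefSeq (GRCh38.p14) places the transcript start, or at the first base of an exon annotated in GENCODE 29, whichever comes first. The strand is minus for all 3, and the letters are written 5′ to 3′ along the gene. FABP1 is chr2:88128117-88128312, RBP2 is chr3:139476517-139476766 and CEBPA is chr19:33302565-33302784. Capitals mark matches to short motifs on either strand.
FABP1: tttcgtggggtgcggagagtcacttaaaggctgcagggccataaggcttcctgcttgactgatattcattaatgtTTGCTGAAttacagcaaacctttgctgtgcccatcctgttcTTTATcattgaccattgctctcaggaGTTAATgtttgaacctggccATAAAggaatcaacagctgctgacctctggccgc
RBP2: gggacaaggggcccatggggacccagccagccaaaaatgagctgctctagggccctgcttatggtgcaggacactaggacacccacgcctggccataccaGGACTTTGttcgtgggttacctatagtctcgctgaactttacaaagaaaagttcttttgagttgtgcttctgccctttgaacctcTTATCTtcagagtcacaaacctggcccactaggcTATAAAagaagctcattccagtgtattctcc
CEBPA: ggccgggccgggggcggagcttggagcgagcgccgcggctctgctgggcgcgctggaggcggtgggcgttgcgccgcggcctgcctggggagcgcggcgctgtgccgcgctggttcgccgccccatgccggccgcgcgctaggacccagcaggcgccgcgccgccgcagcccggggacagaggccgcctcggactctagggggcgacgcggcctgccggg

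Short motifs were searched on both strands of the 250 bases before each start. The core bound by CDX homeobox factors was spelled TTTAT. The partial site for HNF1 factors was spelled GTTAAT. The site for factors of the GATA family was spelled AGATAA. The site for C/EBP factors was spelled TTGCNNAA and the core for HNF4 factors CAAAGTCC. The sterol element was spelled TCACNCCAC and the TATA box TATAAA. The CDX core read on the other strand overlaps the TATA box, and matches inside a TATA box were not counted. In FABP1 the capitals are, in order, a C/EBP match, a CDX match, an HNF1 match and another CDX match. In RBP2 they are an HNF4 match, a match for the GATA family and the TATA box. The printed CEBPA stretch held none of the motifs, but CEBPA and FABP1 each had a TATA box match in the bases left out as exon, 30 and 31 bases before the RefSeq start. The G and C share of the 250 bases was 81.2% for CEBPA, against 48% for FABP1 and 50.4% for RBP2. Of the 15 genes 12 had a promoter in the RefSeq table. The CDX core was in 6 of the 12, against 28.4% of all 27303 promoters of the same length, and the HNF1 motif in 3, against 6.37%. The motif of the GATA family was in 2 of the 12 (9.54% of all), that of C/EBP in 1 (9.2%), that of HNF4 in 1 (1.03%), the TATA box in 4 (11.3%) and the sterol element in none (0.905%). A match is only a run of letters in this window.

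The make-up of the cultures was checked on defining markers before the genes were compared. INS, the insulin gene, had 17 to 180 reads per library, IAPP at most 1 and MAFA at most 11. These beta cell transcripts were thus scarce in these libraries, which are labelled as islets. NKX6-1, another beta cell marker, had from 9 reads (Vardenafil 1) to 248 reads (Moxifloxacin 2). The listed beta cell genes summed to 610 and 668 CPM in rottlerin, 617 and 732 CPM in DMSO and 496 to 1043 CPM in the other 6 compounds. Chromogranin A, CHGA, a granule protein of all endocrine cells, was 222 CPM in Rottlerin 1 and 32.9 CPM in Rottlerin 2, against 170 and 90.2 CPM in DMSO. The mean log2 level of the endocrine genes ranked 4 of 16 in Rottlerin 1 and 16 of 16, the lowest, in Rottlerin 2. AFP, a fetal liver and yolk sac protein, was present throughout at 2570 to 6982 CPM, and CDX2, the intestinal homeobox factor, at 68.3 to 123 CPM. In bulk samples, more cells of a type and more RNA per cell cannot be told apart. Library totals were 29545007 and 30590954 reads for rottlerin, 23294377 and 26449943 for DMSO, and 24290272 to 30701868 for the other 6 compounds. The GC contrast of a library was the median log2 level, relative to each gene's mean, of the genes richest in GC minus that of the poorest. It was -0.353 and -0.425 in DMSO, 0.19 and 0.0146 in rottlerin and -0.234 to 0.827 in the other 6 compounds. DMSO thus lay below both sets. With an offset for GC content no gene was called against DMSO and 16 were called against the other 6 compounds, 15 of them shared with the 15.

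CEBPA (ENSG00000245848, chr19:33299934-33302564 in GENCODE 29) was 48.4 and 64.7 CPM in the rottlerin libraries and 27.0 and 24.0 CPM in DMSO. In the other 6 compounds it ran from 26.4 to 41.0 CPM, with a median of 32.3. Both rottlerin libraries were above all 14 others and the groups did not overlap. It rose by 1.15 (log2, SE 0.15, edgeR adjusted p = 0.0295) against DMSO and by 0.78 (SE 0.10, adjusted p = 0.0118) against the other 6 compounds, which themselves stood 0.37 (SE 0.12, adjusted p = 0.169) above DMSO. The strand setting of the counting was not given in the sources used here, so reads of the neighbouring divergent RNA of CEBPA cannot be told apart where the 2 overlap.

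CDKN1A (ENSG00000124762, chr6:36676460-36687339), the cell cycle inhibitor p21, was the other gene called against DMSO. It was 81.4 and 83.5 CPM in rottlerin and 53.3 and 47.5 CPM in DMSO, and it ran from 49.4 to 114 CPM in the other 6 compounds, so rottlerin lay inside their range. Only Colchicine stood above rottlerin, at 106 and 114 CPM. The highest library of the remaining compounds, Rimonabant 2, had 68.3 CPM, below both rottlerin libraries. CDKN1A rose by 0.71 (SE 0.10, edgeR adjusted p = 0.0484) against DMSO, and its difference from the other 6 compounds was 0.33 (SE 0.07, adjusted p = 0.262). Of 24 targets of the transcription factor p53, which include CDKN1A, 18 were above DMSO, 1 was called, and the median difference was 0.15, against -0.00449 over all genes tested. BAX, which promotes cell death at mitochondria, differed from DMSO by 0.50 (adjusted p = 0.0909), and MDM2, which degrades p53, by -0.01, a sign that changed with other scalings. Of 25 replication and mitosis genes 3 were above DMSO, none was called and the median was -0.17. By library, their median log2 difference from the DMSO mean was -0.111 and -0.313 in rottlerin and -0.57 to 0.186 in the other 6 compounds. For the p53 targets it was 0.0558 and 0.253 in rottlerin and -0.0806 to 0.406 in the other 6 compounds. On both lists rottlerin thus lay inside their range.

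With 1 of the 4 libraries left out, its group holds a single library, which is assumed to vary like the other groups. Without Rottlerin 2, without DMSO 1 or without DMSO 2 no gene was called against DMSO, and without Rottlerin 1 there were 43, both CEBPA and CDKN1A among them. Over all alternatives run the difference of CEBPA from DMSO stayed between 0.788 and 1.355. In a fit of these 4 libraries alone 1 gene was called, and it was neither CEBPA nor CDKN1A.

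**Figure D1:**
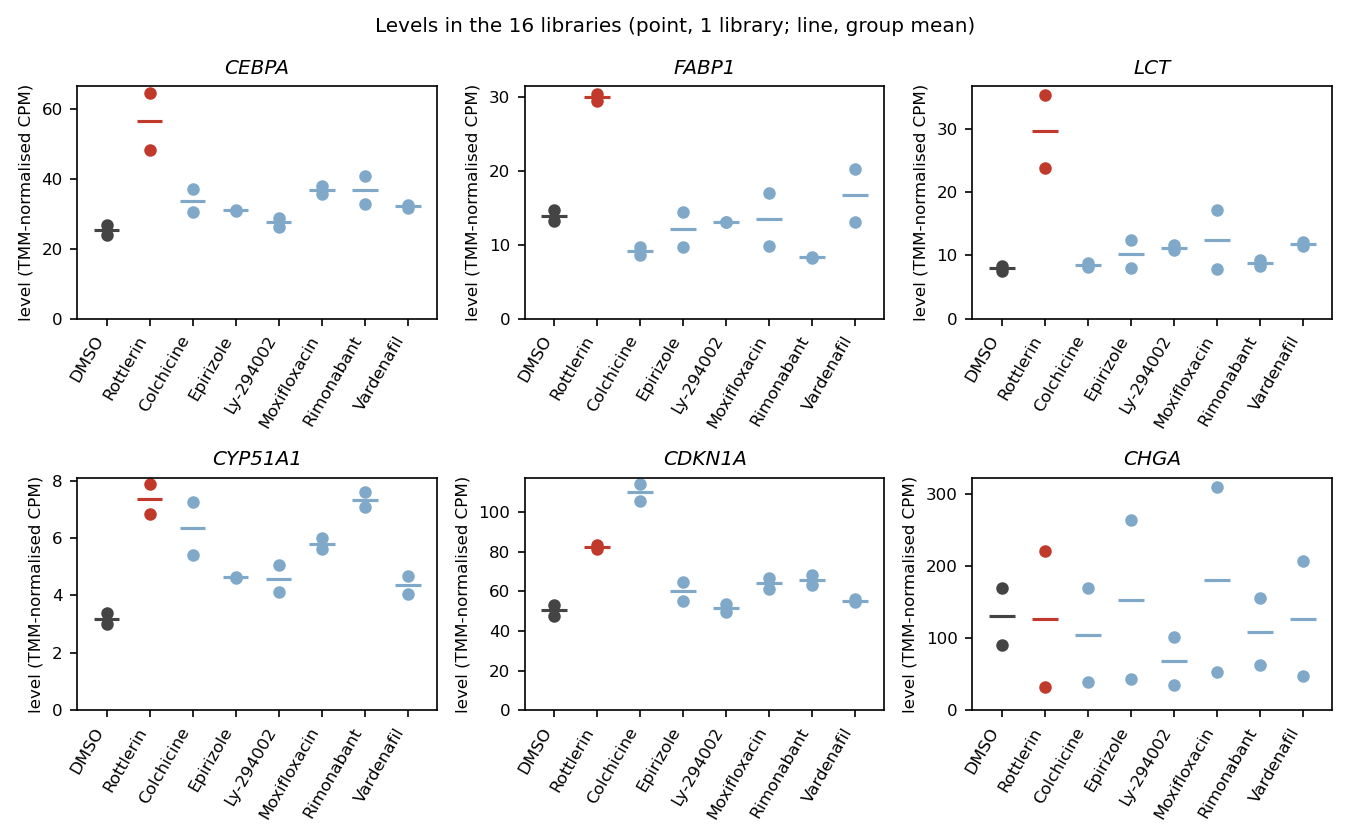
Levels in TMM-normalised CPM (y axis, from 0) of CEBPA, FABP1, LCT, CYP51A1, CDKN1A and CHGA in the 8 groups (x axis). Each point is 1 library and each line the mean of the 2 libraries of a group. CEBPA, FABP1 and LCT are highest in both rottlerin libraries, and CYP51A1 overlaps with other compounds. CDKN1A is higher than in rottlerin only in Colchicine. CHGA differs between the 2 rottlerin libraries (222 and 32.9 CPM).

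The genes that rose against the other 6 compounds are given by role, starting with digestion and absorption. These roles were assigned after the calls: 4 of the 15 genes were in the 2 enterocyte lists, 6 in any list and 9 in none. LCT (ENSG00000115850, chr2:135787840-135837180), lactase, which splits milk sugar at the brush border, was 23.8 and 35.3 CPM in rottlerin, 8.37 and 7.52 CPM in DMSO and 7.91 to 17.1 CPM (median 10.1) in the other 6 compounds. Both rottlerin libraries were above every other library. LCT rose by 1.51 (SE 0.20, edgeR adjusted p = 0.0161) against the other 6 compounds, and stood 1.90 (SE 0.31, adjusted p = 0.0591) above DMSO.

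FABP1 (ENSG00000163586, chr2:88122982-88128116), the fatty acid binding protein of liver and small intestine, was 29.6 and 30.4 CPM in rottlerin, 14.8 and 13.2 CPM in DMSO and 8.23 to 20.3 CPM (median 11.5) in the other 6 compounds. It rose by 1.34 (SE 0.17, adjusted p = 0.0118) against the other 6 compounds. Its difference from DMSO was 1.10 (SE 0.25, adjusted p = 0.078), and that of the other 6 compounds from DMSO was -0.24 (SE 0.19). ACSL5 (ENSG00000197142, chr10:112374018-112428380), which joins long-chain fatty acids to coenzyme A and is abundant in intestine, was 9.86 and 8.72 CPM in rottlerin, 2.88 and 2.34 CPM in DMSO and 1.59 to 4.26 CPM (median 2.74) in the other 6 compounds. The lowest rottlerin library had more than the highest of all others. ACSL5 rose by 1.77 (SE 0.21, adjusted p = 0.0118) against the other 6 compounds, which differed from DMSO by 0.07 (SE 0.26), a sign that changed without DMSO 2 and with Colchicine left out.

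RBP2 (ENSG00000114113, chr3:139452884-139480747, a span that holds the promoter window above), the retinol binding protein of enterocytes, was 3.43 and 1.80 CPM in rottlerin (104 and 53 reads), 0.654 and 0.269 CPM in DMSO and 0.170 to 1.01 CPM (median 0.440) in the other 6 compounds. It rose by 2.44 (SE 0.35, adjusted p = 0.0161), the largest rise of the 15. SLC26A3 (chr7:107765467-107803225), the chloride and bicarbonate exchanger of the intestinal surface, was 7.29 and 9.53 CPM in rottlerin, 3.88 and 2.03 CPM in DMSO and 1.55 to 4.54 CPM (median 3.10) in the other 6 compounds. It rose by 1.39 (SE 0.22, adjusted p = 0.0317). Neither gene overlapped between rottlerin and any other library.

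Other called genes encode surface or mucus proteins. MUC17, a membrane mucin of the brush border, was 2.64 and 2.15 CPM in rottlerin (80 and 63 reads), 0.480 and 0.384 CPM in DMSO and 0.106 to 1.12 CPM (median 0.415) in the other 6 compounds. It rose by 2.27 (SE 0.33, adjusted p = 0.0161). TFF2, a trefoil peptide secreted mainly by gastric mucosa, was 27.9 and 29.3 CPM in rottlerin, 13.2 and 10.0 CPM in DMSO and 8.21 to 17.9 CPM (median 11.9) in the other 6 compounds, and it rose by 1.23 (SE 0.18, adjusted p = 0.0175). Both genes were higher in each rottlerin library than in any other. TSPAN8, a tetraspanin of epithelial membranes, rose by 1.05 (adjusted p = 0.0243), and CEACAM1, an adhesion protein, by 1.35 (adjusted p = 0.0254). TSPAN8 in Rottlerin 1 (22.0 CPM) was only just above Colchicine 1 (21.7 CPM).

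The remaining 5 called genes lie outside these roles. HSD3B1, an enzyme of steroid hormone synthesis, was 4.22 and 3.98 CPM in rottlerin, 1.22 and 0.499 CPM in DMSO and 0.517 to 2.11 CPM in the other 6 compounds, and rose by 2.23 (SE 0.32, adjusted p = 0.0161). AADACL3, named for its likeness to the lipase-like enzyme AADAC, was 2.74 CPM in Rottlerin 1 and 6.10 CPM in Rottlerin 2, against 1.22 and 0.959 CPM in DMSO and 0.472 to 1.58 CPM in the other 6 compounds, and rose by 2.16 (SE 0.29, adjusted p = 0.0118). S100P, a calcium-binding protein, rose by 1.21 (adjusted p = 0.0343), the long non-coding RNA LINC01559 by 1.47 (adjusted p = 0.0468) and ACER2, a ceramidase of the Golgi, by 0.63 (adjusted p = 0.0493). ACER2 was the 1 gene of the 15 in which the rottlerin libraries (16.1 and 18.1 CPM) overlapped with other compounds (9.27 to 16.5 CPM). LINC01559 stood 0.63 above DMSO (SE 0.35, adjusted p = 0.427), the highest adjusted p of the 15 in that comparison. How multiply mapped reads were counted was not given in the sources used here, so members of families with close copies (HSD3B1, MUC17, CEACAM1, AADACL3) are uncertain.

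Across the 15 genes the difference from DMSO ran from 0.55 to 2.51 with a median of 1.40. There 14 of the 15 had an edgeR unadjusted p under 0.05, where 8.3% of all genes tested were higher at that p. The 15 were chosen through the same rottlerin libraries, so these values are no separate evidence. The difference of the other 6 compounds from DMSO ran from -0.84 to 0.39 with a median of 0.07, with adjusted p from 0.169 to 0.982. Of the 15 genes, 10 were higher in Rottlerin 2 than in Rottlerin 1 and 5 the other way, while the endocrine genes were high in Rottlerin 1 and lowest in Rottlerin 2. With the endocrine score as a covariate 32 genes were called, the 15 among them. Without Rottlerin 1 there were 5 calls (4 of them shared with the 15: AADACL3, CEBPA, LCT and TSPAN8), and without Rottlerin 2 there were none. Rottlerin is then 1 library, and the spread comes from the other groups. The differences of the 15 from the other 6 compounds stayed positive, at 0.72 to 2.63 (median 1.57) without Rottlerin 1 and 0.54 to 2.82 (median 1.19) without Rottlerin 2. With Ly-294002 left out 3 of the 15 were called, with Rimonabant left out 3, and with Colchicine left out all 15 among 24.

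**Figure D2:**
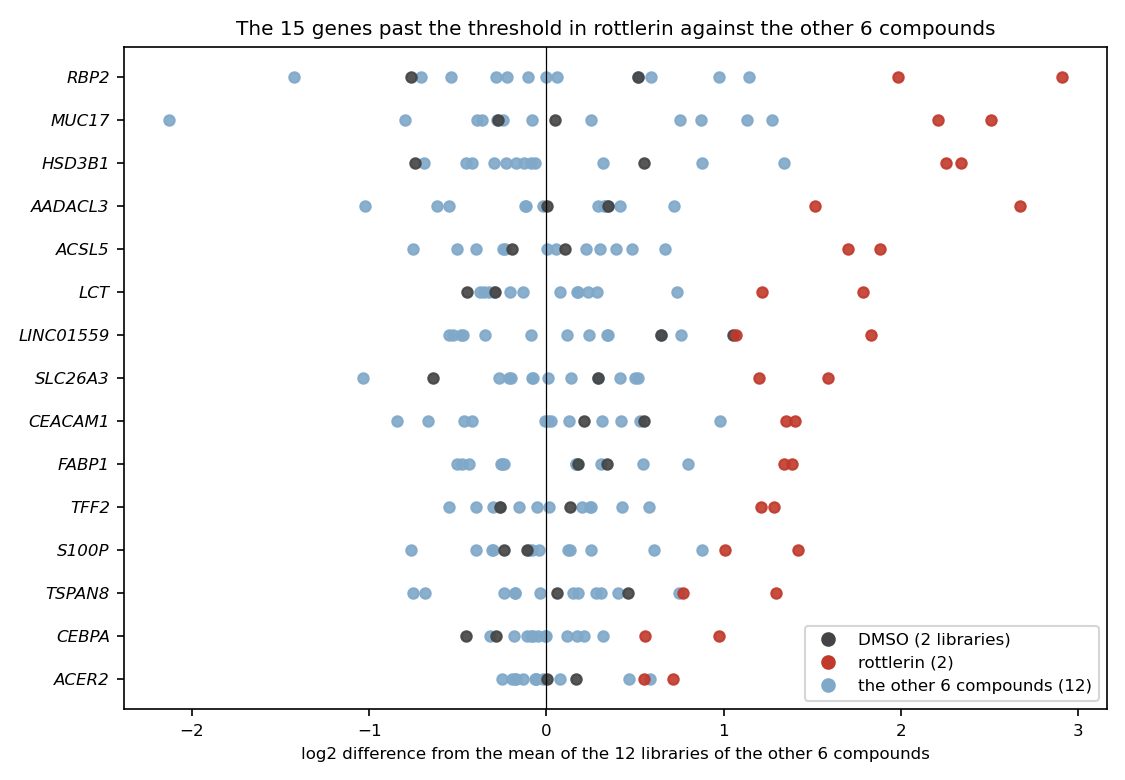
Each row is 1 of the 15 genes that rose in rottlerin against the other 6 compounds, ordered by the size of the rise. The x axis is the log2 difference of a library's level from the mean of the 12 libraries of the other 6 compounds (line at 0), and each point is 1 library. The 2 rottlerin points lie to the right of all others in 14 of the 15 rows, ACER2 being the exception, while the higher DMSO point of LINC01559 (2.75 CPM) lies just left of the lower rottlerin point (2.77 CPM).

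The wider lists of intestinal genes were then read. They include called genes, and their members were chosen with earlier results of these data known, so their counts are no separate support for the calls. Of 28 genes of the enterocyte brush border 26 were tested: 22 were above DMSO with a median of 0.40, 9 were higher and 2 lower at an unadjusted p under 0.05, and none was called. Against the other 6 compounds 24 of the 26 were above, 11 were higher at an unadjusted p under 0.05, 1 (LCT) was called and the median was 0.35, where the median over all genes tested was 0.00305. ANPEP, an aminopeptidase, was 279 and 299 CPM in rottlerin, 189 and 215 CPM in DMSO and 218 to 316 CPM in the other 6 compounds. ANPEP differed from DMSO by 0.52 (adjusted p = 0.0657) and from the other 6 compounds by 0.18 (adjusted p = 0.98). Its rottlerin levels lay in the upper part of the range of the other 6 compounds, where only Colchicine 2 and Rimonabant 1 exceeded both. KRT20, a keratin of mature enterocytes, was 2.94 and 0.851 CPM in rottlerin against 0.480 and 0.192 CPM in DMSO and 0.156 to 0.877 CPM in the other 6 compounds, so Rottlerin 2 overlapped with them. KRT20 differed by 2.35 (SE 0.42, adjusted p = 0.0709) from the other 6 compounds.

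The list was not uniform. SI, sucrase-isomaltase, the sugar-splitting enzyme that stands beside lactase at the brush border, was 139 and 95.5 CPM in rottlerin and 162 and 192 CPM in DMSO, a difference of -0.59 (SE 0.16, adjusted p = 0.124). MME, a membrane peptidase, was 24.3 and 23.5 CPM in rottlerin and 41.3 and 38.5 CPM in DMSO, a difference of -0.74 (SE 0.23, adjusted p = 0.172). For both genes the rottlerin levels were below both DMSO libraries, and neither passed the threshold. The other 6 compounds, at 117 to 181 CPM for SI and 18.9 to 46.1 CPM for MME, stood -0.36 and -0.37 from DMSO. For MME both rottlerin libraries lay inside the range of the other 6 compounds. For SI the higher rottlerin library (139 CPM) lay inside that range, and the lower (95.5 CPM) lay below every other library.

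Of 31 genes of enterocyte transport and fat absorption 26 were tested. Against DMSO 23 were above with a median of 0.52, 12 were higher and none lower at an unadjusted p under 0.05, and none was called. Against the other 6 compounds 21 were above with a median of 0.33, 10 were higher at an unadjusted p under 0.05 and 3 were called (FABP1, RBP2 and SLC26A3). Both rottlerin libraries were above all 14 others in 8 of the 26, the 3 called genes among them, against 0.93% of all genes tested. The same held for 3 of 26 brush border genes, 6 of 35 liver plasma protein genes and 4 of 34 lineage transcription factors. It held for none of the 11 goblet, Paneth and intestinal stem cell markers. SLC46A1, the folate transporter of the upper intestine, was 120 and 172 CPM in rottlerin, 99.0 and 82.3 CPM in DMSO and 81.5 to 110 CPM in the other 6 compounds, a difference of 0.64 (SE 0.12, adjusted p = 0.149) from the latter. DGAT1, which makes triglyceride, was 22.0 and 21.7 CPM in rottlerin and 12.7 and 11.7 CPM in DMSO, but it reached 27.2 CPM in the other 6 compounds. By library, the median log2 difference of this list from the DMSO mean was 0.41 and 0.63 in rottlerin and -0.20 to 0.29 in the other 6 compounds.

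Other gut classes gave fewer tested genes. Of 14 goblet, Paneth and intestinal stem cell markers 11 were tested, 9 were above DMSO and none was called. TFF3, a trefoil peptide of goblet cells, was 8.35 and 11.9 CPM in rottlerin, 4.14 and 4.11 CPM in DMSO and 4.87 to 10.0 CPM in the other 6 compounds (difference from DMSO 1.29, adjusted p = 0.0623). Of 11 gastric markers 7 were tested and 6 were above DMSO. CTSE, a gastric protease, was 45.0 and 43.9 CPM in rottlerin against 25.2 and 17.6 CPM in DMSO, and the other 6 compounds reached 42.5 CPM. MUC5AC, the defining gastric mucin, had at most 6 reads in any library.

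Among 34 tested transcription factors of the liver and gut lineages 21 were above DMSO with a median of 0.12, and CEBPA alone was called. Without Rottlerin 2 this median was -0.0097. HNF4A, which both lineages use, was 184 and 217 CPM in rottlerin, 146 and 118 CPM in DMSO and 132 to 203 CPM in the other 6 compounds (difference from DMSO 0.60, SE 0.14, adjusted p = 0.0875). CDX1 was 11.0 and 12.5 CPM in rottlerin and 6.67 and 7.10 CPM in DMSO, a difference of 0.77 (adjusted p = 0.111), and reached 11.3 CPM in other compounds. CDX2 was 99.0 and 102 CPM in rottlerin and 77.5 and 68.3 CPM in DMSO, but the other 6 compounds reached 123 CPM and the difference from them was 0.05 (adjusted p = 1), with its sign changed when Vardenafil was left out. The other members of the C/EBP family, which bind the same DNA motif, did not pass the threshold: CEBPB differed from DMSO by 0.19, CEBPD by 0.11 and CEBPG by -0.03, and the sign of each changed with a GC offset.

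Liver plasma proteins mostly stood above DMSO in rottlerin, and to a smaller extent in the other 6 compounds. Of 38 listed genes 35 were tested: 27 were above DMSO, 14 were higher and none lower at an unadjusted p under 0.05, none was called, and the median was 0.55. The other 6 compounds stood 0.22 above DMSO by the same median. Rottlerin stood 0.33 above them, with 10 genes higher and 1 lower at an unadjusted p under 0.05. Taken singly, however, the libraries overlapped on this list. Rottlerin 1 (0.43) lay below Colchicine 1 (0.53) and Moxifloxacin 2 (0.52), and only Rottlerin 2 (0.64) lay above every other compound. DMSO 1 itself stood at 0.20. These are list medians of log2 differences, with the average DMSO level set to 0. ALB, serum albumin, was 56.4 and 101 CPM in rottlerin, 39.9 and 27.5 CPM in DMSO and 33.5 to 55.9 CPM in the other 6 compounds. ALB differed from DMSO by 1.22 (SE 0.29, adjusted p = 0.103), and its 2 rottlerin libraries were the highest of the 16. APOA1, the main protein of high-density lipoprotein, was 277 and 217 CPM in rottlerin, 150 and 106 CPM in DMSO and 143 to 280 CPM in the other 6 compounds, so rottlerin lay inside their range. APOC3, an apolipoprotein of triglyceride-rich particles, was 10.4 and 7.83 CPM in rottlerin, 3.66 and 3.45 CPM in DMSO and 2.51 to 6.39 CPM in the other 6 compounds (difference from the latter 1.10, SE 0.22, adjusted p = 0.153). F2, prothrombin, was 25.4 and 24.3 CPM in rottlerin, 15.2 and 13.2 CPM in DMSO and 15.4 to 21.9 CPM in the other 6 compounds (difference from DMSO 0.80, SE 0.14, adjusted p = 0.0591). FGB, the fibrinogen beta chain, differed from DMSO by -0.10, a sign that changed with a GC offset, and TTR by 0.40 (adjusted p = 0.667). AFP was 4071 CPM in Rottlerin 1 and 6982 CPM in Rottlerin 2, against 4450 and 3121 CPM in DMSO, so Rottlerin 1 lay below DMSO 1. The difference of AFP from DMSO was 0.55 (SE 0.35, edgeR adjusted p = 0.513).

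**Figure D3:**
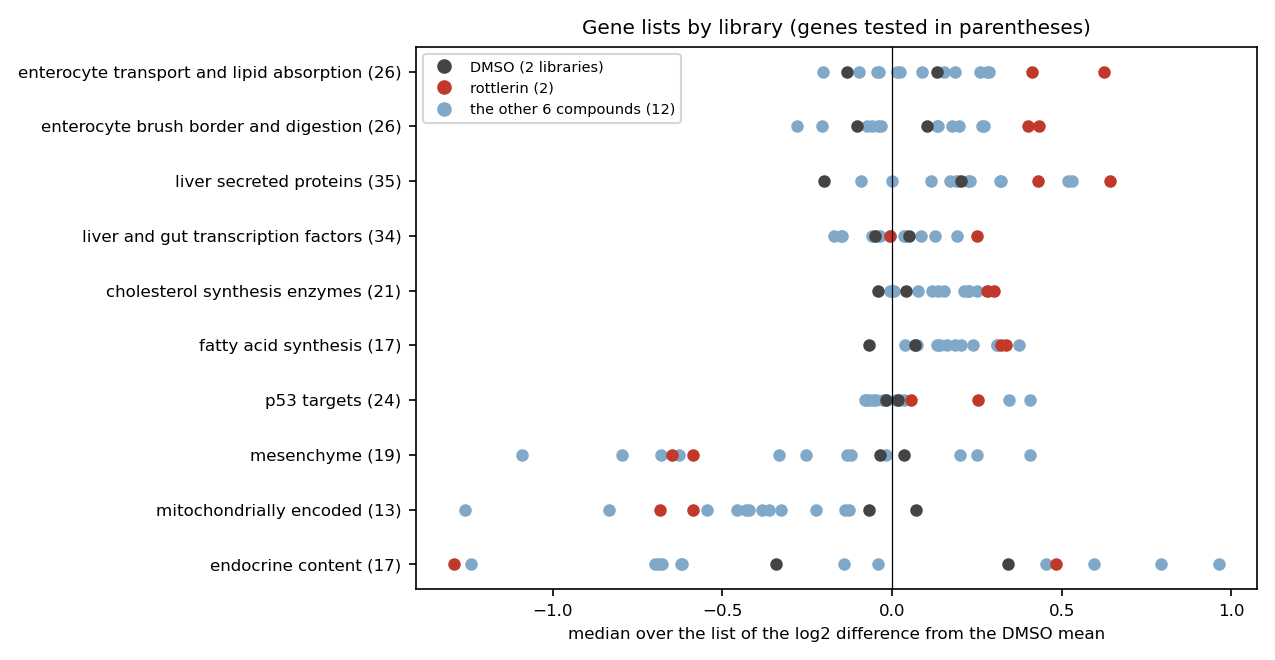
Each row is a gene list and each point 1 library, placed by the median over the list's tested genes of the log2 difference from the DMSO mean (x axis, line at 0). The rottlerin points lie beyond all other compounds for enterocyte transport (0.41 and 0.63) and brush border genes (0.40 and 0.43), mix with them for fatty acid synthesis and mesenchyme genes, and lie far apart from each other for endocrine genes (0.48 and -1.29).

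Cholesterol synthesis genes stood above DMSO in rottlerin, and the largest of these differences, in CYP51A1, was also present in the other 6 compounds at a smaller size. CYP51A1 (ENSG00000001630, chr7:92112151-92134803), which removes a methyl group from lanosterol, was 6.83 and 7.87 CPM in rottlerin (207 and 231 reads), 3.40 and 2.99 CPM in DMSO (78 and 78 reads) and 4.07 to 7.62 CPM (median 5.23) in the other 6 compounds. Every treated library was above both DMSO libraries, and rottlerin overlapped with Rimonabant and Colchicine. CYP51A1 differed from DMSO by 1.20 (SE 0.21, adjusted p = 0.0591) in rottlerin and by 0.76 (SE 0.17, adjusted p = 0.138) in the other 6 compounds, and the difference between these was 0.44 (SE 0.15, adjusted p = 0.82). Pseudogenes of CYP51A1 could share its reads.

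All 21 enzymes of the pathway were tested. In rottlerin 19 were above DMSO, 10 were higher and none lower at an unadjusted p under 0.05, none was called, and the median was 0.24. The other 6 compounds stood 0.14 above DMSO and rottlerin 0.15 above them. Single libraries overlapped here too, as Colchicine 1 (0.284) fell between Rottlerin 1 (0.279) and Rottlerin 2 (0.299) by the list's median log2 difference from DMSO. MVD, which makes isopentenyl diphosphate, was 70.0 and 67.0 CPM in rottlerin, 40.2 and 46.0 CPM in DMSO and 46.3 to 84.3 CPM in the other 6 compounds (difference from DMSO 0.67, SE 0.12, adjusted p = 0.0591).

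DHCR7, which performs a last step to cholesterol, had the smallest adjusted p against the other compounds within the pathway. It was 113 and 116 CPM in rottlerin, 84.6 and 84.5 CPM in DMSO and 67.6 to 110 CPM (median 86.3) in the other 6 compounds. Its difference from the other 6 compounds was 0.39 (SE 0.07, adjusted p = 0.0841), and that of the other 6 compounds from DMSO was 0.05. INSIG1, which holds SREBP in the endoplasmic reticulum and is itself an SREBP target, was 98.7 and 101 CPM in rottlerin, 77.2 and 81.2 CPM in DMSO and 69.3 to 84.6 CPM in the other 6 compounds. INSIG1 differed by 0.36 (SE 0.07, adjusted p = 0.121) from the other 6 compounds, which differed from DMSO by -0.02. With a GC offset the small difference of the other 6 compounds from DMSO changed sign for DHCR7 and for INSIG1. In both genes the rottlerin libraries were above all 14 others, but neither passed the threshold. Of 26 genes of sterol sensing, uptake and efflux 19 were above DMSO, with a median of 0.25, and of 17 tested fatty acid synthesis genes 14 were, with a median of 0.35. Against the other 6 compounds these medians were 0.11 and 0.08. Rottlerin overlapped with single libraries of other compounds on both lists. Relative to DMSO, sterol sensing reached 0.225 in Rimonabant 2, against 0.223 and 0.24 in rottlerin. Fatty acid synthesis reached 0.374 in Colchicine 1, against 0.32 and 0.335 in rottlerin. FASN, fatty acid synthase, was 552 and 443 CPM in rottlerin, 346 and 329 CPM in DMSO and up to 817 CPM in the other 6 compounds.

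**Figure D4:**
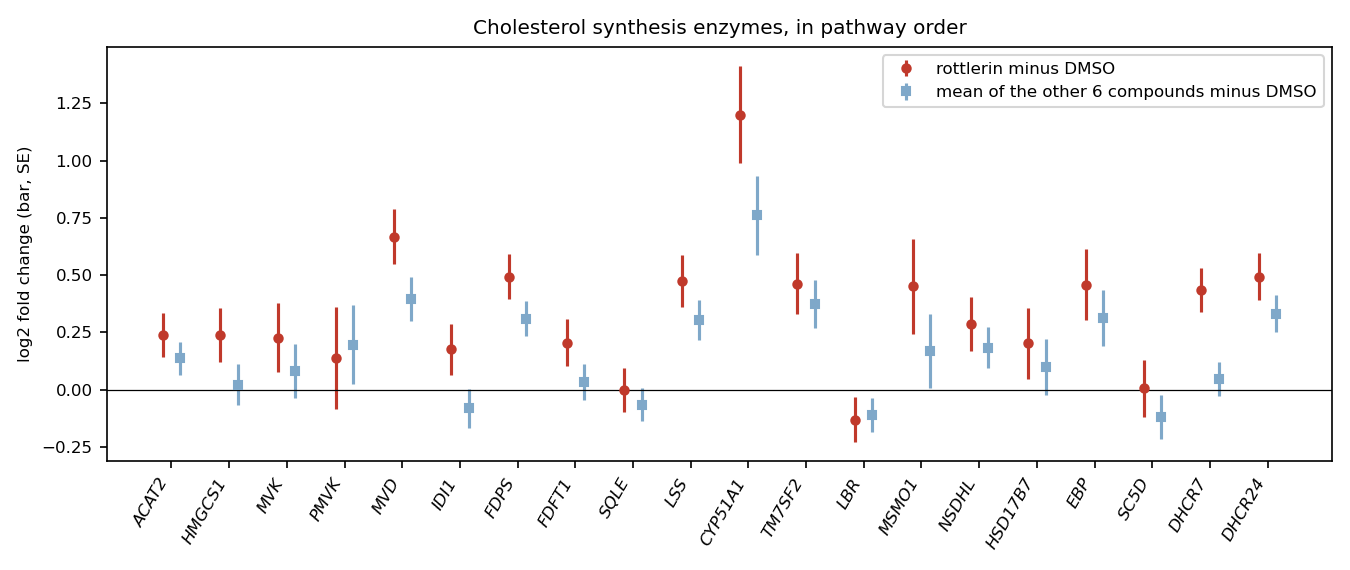
Log2 fold changes from DMSO (y axis) of 20 of the 21 cholesterol synthesis enzymes in pathway order (x axis), for rottlerin (circles) and for the mean of the other 6 compounds (squares). Bars are standard errors. CYP51A1 stands highest in both (1.20 and 0.76), and DHCR7 stands at 0.43 in rottlerin and near 0 in the other compounds (0.05, with its sign changed by a GC offset).

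Genes tied to the reported targets of rottlerin were also read. PRKCD, which encodes protein kinase C delta, was 43.4 and 44.8 CPM in rottlerin, 35.2 and 36.1 CPM in DMSO and 31.7 to 48.1 CPM in the other 6 compounds, a difference from DMSO of 0.31 that lay inside the range of the other treated cultures. Of 20 genes of protein kinase C and other reported targets 10 were above DMSO, none was called and the median was 0.01. KCNMA1, a potassium channel that rottlerin has been reported to open, was 48.9 and 35.9 CPM in rottlerin and 81.4 and 64.8 CPM in DMSO (difference -0.79, SE 0.34, adjusted p = 0.323).

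None of the 13 protein-coding genes of the mitochondrial genome was above DMSO. Their median difference was -0.64, 12 were lower at an unadjusted p under 0.05 and none was called. The other 6 compounds gave -0.42 by the same median, and rottlerin differed from them by -0.20. MT-ND6, a subunit of respiratory complex I, was 225 and 224 CPM in rottlerin, 432 and 578 CPM in DMSO and 150 to 478 CPM in the other 6 compounds. By library the list's median difference from the DMSO mean was -0.68 and -0.59 in rottlerin and -1.26 to -0.13 in the other 6 compounds, so the rottlerin values lay inside that range.

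Markers of other cell types were read beside these lists. Of 19 mesenchymal genes 2 were above DMSO, 1 was higher and 5 lower at an unadjusted p under 0.05, and the median was -0.67. The higher one was TAGLN, a protein of contractile cells, at 179 and 175 CPM in rottlerin, 132 and 79.8 CPM in DMSO and 95.9 to 200 CPM in the other 6 compounds (difference from DMSO 0.74, adjusted p = 0.146). Their summed level was 3275 and 3140 CPM in rottlerin, 4168 and 3852 CPM in DMSO and 2686 to 5233 CPM in the other 6 compounds. POSTN, a matrix protein, was 80.2 and 40.6 CPM in rottlerin and 145 and 158 CPM in DMSO (difference -1.33, SE 0.32, adjusted p = 0.112). The other 6 compounds, at 54.9 to 157 CPM for POSTN, stood -0.79 from DMSO, and only Rottlerin 2 lay below their range. Against the other 6 compounds the median of the mesenchymal genes was -0.41, and the part of this in the intestinal and liver differences was not tested. Of 17 tested endocrine genes 7 were above DMSO, with a median of -0.03, and their summed level was 569 CPM in Rottlerin 1 and 328 CPM in Rottlerin 2. Endothelial markers were few and went both ways. PECAM1 was 2.01 and 1.16 CPM in rottlerin (61 and 34 reads), 0.523 and 0.422 CPM in DMSO and 0.279 to 1.12 CPM in the other 6 compounds, so both rottlerin libraries were the highest of the 16 (difference from DMSO 1.74, SE 0.62, adjusted p = 0.205). KDR was 0.627 and 1.29 CPM in rottlerin and 3.27 and 5.33 CPM in DMSO (difference -2.16, SE 0.61, adjusted p = 0.13). In the other 6 compounds KDR ran from 0.345 to 4.51 CPM and stood -1.55 from DMSO, so rottlerin lay inside their range. CDH5 had at most 22 reads in any library, the neural crest marker SOX10 at most 6 and the pluripotency marker POU5F1 at most 6.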

How the data were processed

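Total RNA was sequenced as ribosome-depleted paired-end libraries (KAPA RNA HyperPrep with RiboErase), per the labels' protocols. The authors deposited raw read counts for 62754 genes in 16 libraries. Per the labels' protocols and the submitters' processing notes, the tools were FastQC 0.11.8, Trimmomatic 0.38, STAR 2.7.1a, Picard 2.20.4, StringTie 2.0.4, featureCounts 1.6.0 and HTSeq, on GRCh38. Neither the strand setting nor the annotation release is given in the sources used here.

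From the deposited counts, genes were filtered with filterByExpr over the 8 groups, which left 24515 genes holding 99.92% of reads, and scaled by TMM. Differences were tested, two-sided, with the quasi-likelihood F test of edgeR 4.0.16 (R 4.3.3, limma 3.58.1) in 1 fit with 8 residual degrees of freedom, and p-values were adjusted by Benjamini-Hochberg over all genes tested. The script's recovery of changed genes was tested on simulated data. DESeq2 1.42.0, other scaling, filters and covariates, and leaving out each rottlerin library, each DMSO library or each other compound were the alternatives. Where several tested identifiers carried 1 symbol, the one with most reads was used (183 others were set aside). Of 543 list members 497 passed the filter.

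The members and gene lists were chosen with earlier results of these data known. Genes were named where they passed the threshold (at most 20 per direction), as the 10 with the smallest p where fewer than 10 passed, as up to 6 further members of a list with the smallest p, by the largest gap to all 14 other libraries, or as fixed markers. Other list members named (such as MDM2, FGB, CEBPB, CEBPD and CEBPG) were chosen after their values were seen. Positions are from GENCODE 29 on GRCh38 and promoters from RefSeq on GRCh38.p14. Single values of some list members are not reported here.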

Additional observations from a re-analysis of the deposited data

How the results depend on the processing

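Against DMSO, where 2 genes were called, edgeR called 1 with upper-quartile scaling, 1 with a stricter filter, 1 in a fit of the compared groups alone, 1076 with no filter on low counts, 772 with the endocrine score as a covariate and 0 with a GC offset, and DESeq2 called 678. Against the other 6 compounds, where 15 were called, the counts were 311 with no filter, 32 with the endocrine score and 52 with DESeq2. There 24 genes were called with Colchicine left out, 3 with Ly-294002 left out and 3 with Rimonabant left out. For the other 6 compounds against DMSO, where none was called, they were 908 with no filter, 491 with the endocrine score and 458 with DESeq2. Leaving out 1 of the 4 rottlerin and DMSO libraries at a time gave 0 to 43 calls against DMSO, 0 to 12 against the other 6 compounds and 0 in the third comparison. The single libraries of the other 6 compounds were not left out one by one. The cause of these changes was not tested.

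The replicate numbers were only names. The deviations of same-numbered libraries correlated between -0.259 and 0.211 over 28 pairs of groups, 5 of them over 0.1. With a replicate block 2 genes were called against DMSO (1 of them shared), 8 against the other 6 compounds and 1 in the third comparison. With the GC offset and the replicate block together, 0 were called against DMSO and 3 against the other 6 compounds.

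The log2 differences printed for 48 genes gave 1280 values under the alternatives: 1034 kept direction and side of the threshold, 102 lost the threshold, 116 gained it and 28 changed sign, all where the reported log2 difference was at most 0.19 in size. Against DMSO, the GC offset without and with the block gave 0.1281 and 0.1262 for MDM2, -0.1948 and -0.1941 for CEBPB, -0.401 and -0.401 for CEBPD, 0.07713 and 0.07641 for CEBPG, and 0.04407 and 0.04132 for FGB. MDM2 was 0.0001505 with DESeq2 and 0.0001476 with relative log expression factors. For the other 6 compounds against DMSO, the GC offset without and with the block gave -0.09979 and -0.09981 for DHCR7 and 0.04222 and 0.04226 for INSIG1. INSIG1 was 0.0005672 with Ly-294002 left out, ACSL5 -0.001001 with Colchicine left out, and CDX2 in rottlerin against the other 6 compounds -0.01607 with Vardenafil left out. Leaving out 1 rottlerin or DMSO library at a time gave ranges against DMSO of -0.2018 to 0.1745 for MDM2, -0.0968 to 0.5758 for CEBPB, -0.1754 to 0.4425 for CEBPD, -0.1617 to 0.09798 for CEBPG and -0.3214 to 0.1073 for FGB. For the other 6 compounds against DMSO they were -0.06365 to 0.2257 for ACSL5 and -0.05111 to 0.02965 for INSIG1. Of 374 list medians 310 moved by at most the standard deviation between the list medians of Rottlerin 1 and Rottlerin 2. That measure is wide for a list on which these 2 libraries differ, and it does not cover the other groups. ACSL5 passed against the other 6 compounds in 18 of 20 alternatives, AADACL3 in 19, FABP1 and CEBPA in 17 and LCT in 16. With 2 libraries a group, small differences were not detectable, and 3 reads correspond to 0.0977 to 0.129 CPM.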

Other observations

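Some further genes stood apart in rottlerin without passing the threshold. CYP1A1, a detoxifying enzyme induced through the aryl hydrocarbon receptor, was 5.91 and 4.56 CPM in rottlerin, 2.05 and 0.652 CPM in DMSO and 1.20 to 3.40 CPM in the other 6 compounds (difference from the latter 1.33, edgeR adjusted p = 0.18). NQO1, a quinone reductase of the oxidative response, was 12.5 and 13.6 CPM in rottlerin, 7.28 and 6.60 CPM in DMSO and 6.64 to 10.1 CPM in the other 6 compounds. In both genes each rottlerin library was above all 14 others, but of 13 tested xenobiotic and oxidative response genes only 7 were above DMSO. PPARGC1B, a coactivator of mitochondrial and lipid genes, was 10.6 and 5.01 CPM in rottlerin and 3.23 and 2.76 CPM in DMSO, and Rottlerin 2 lay below the highest library of the other 6 compounds (5.17 CPM).

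On the low side, OTX2, a homeobox factor of forebrain and eye, was 0.495 and 0.375 CPM in rottlerin and 1.48 and 1.84 CPM in DMSO. PEG10, an imprinted gene derived from a retrotransposon, was 421 and 446 CPM in rottlerin, 615 and 662 CPM in DMSO and 440 to 561 CPM in the other 6 compounds. The 12 named genes below all 14 other libraries had adjusted p of 0.123 or more against the other 6 compounds. By distance over the 2000 most variable genes, no library of the 16 was nearest to the other library of its own group.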
